A study of Mus musculus with 6 samples.

Results

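Genes of the splicing machinery and of the heterogeneous nuclear ribonucleoproteins (hnRNPs) were examined in mouse kidney after lipopolysaccharide (LPS). The members were the gene symbols that begin with Srsf, Sf3a, Sf3b or Prpf and a digit, or with Hnrnp or Snrp, 65 of the 17680 symbols counted. They fell into 5 classes: 21 Hnrnp genes, 13 Prpf genes, 11 Snrp genes, 11 Srsf genes and 9 Sf3 genes. Wild-type (WT) C57BL/6 mice aged 6 to 8 weeks received an intraperitoneal injection of LPS, a component of the bacterial outer membrane used to model sepsis (LPS group, 3 kidneys). Control mice of the same strain, genotype and age received phosphate-buffered saline (PBS) by the same route (Control group, 3 kidneys). Kidneys were taken on day 1, 24 h after the injection, and bulk RNA was sequenced. The LPS dose was not given in the sources used here.

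Introns are removed from pre-mRNA by the spliceosome, which assembles on each intron from small nuclear ribonucleoproteins (snRNPs), particles made of a small nuclear RNA and proteins. The Sm proteins form a ring around the RNA of the U1, U2, U4 and U5 particles, SF3A and SF3B hold the U2 particle at the branch point, and Prp factors bring in and activate the U4/U6.U5 tri-snRNP. SR proteins bind exons and recruit these particles, while hnRNPs coat the nascent transcript and often act against them, so that the balance between both groups influences which exons are kept.

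The libraries held between 29097558 and 33454344 counts, and no 2 replicates were as alike as counting error alone would leave them. The groups differed in the makeup of their RNA. All 8 proximal tubule markers fell, with a summed level of 39214 to 43192 CPM (counts scaled to library size) in Control and 12077 to 13592 CPM in LPS kidneys. All 5 tested neutrophil markers rose, and the sum over the 8 listed went from 2.83 to 3.42 CPM to 64.8 to 90.5 CPM. The listed markers Elane, Mpo and Ly6g were below the count filter, with at most 6 counts in either group. Retnlg (5, 2 and 0 Control counts) and Cxcr2 (2, 4 and 6) passed that filter through their LPS libraries only, which favoured a rise. Of 7 monocyte and macrophage markers 2 rose and 3 fell, all 4 tested lymphocyte markers fell, and 4 of 5 loop and distal tubule markers, 4 of 5 collecting duct markers, 2 of 5 podocyte markers and 1 of 5 endothelial markers fell. Of all tested genes 25.7% rose and 24.8% fell, and the endothelial share that fell (20%, median log2 fold change 0.09) did not exceed that. The lymphocyte markers Cd3g (2, 10 and 8 LPS counts) and Cd4 (14, 9 and 1) passed the count filter because of their Control libraries, which favoured a fall. LPS replicate 2 carried seminal vesicle transcripts at 3.65% of its counts, against at most 0.00456% in every other library. In bulk kidney, fewer cells of a type and less RNA per cell cannot be told apart, and the part of these shifts in the results below was not tested.

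Splicing genes changed by small amounts in LPS kidneys, more often upward than downward. Of the 65 members 63 passed the filter on low counts, and 22 of them rose and 7 fell (quasi-likelihood test of edgeR, threshold 0.05 on p-values adjusted over all 14219 genes tested). That is 34.9% higher and 11.1% lower, beside a background of 25.7% of all genes called higher, 24.8% called lower and 50.5% called in either direction. No member changed 2-fold, a size reached by 17.9% of all genes in either direction, and the largest log2 fold changes were 0.76 upward and -0.53 downward. At least 1.5-fold increases were found for 6 members (background 14.2%) and decreases of that size for none (background 15.8%). The median log2 fold change of the members was 0.15, beside 0.01 over all genes. The 95% intervals of all 63 tested members lay within 2-fold in both directions, as did those of 64.9% of all genes. The 3 LPS libraries lay above all Control libraries for 28 members and below them for 13, together 65.1% of the members beside 60.2% of all genes. Without LPS replicate 2, 18 members rose and 5 fell, and without Control replicate 1, 18 rose and 4 fell.

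**Figure D1:**
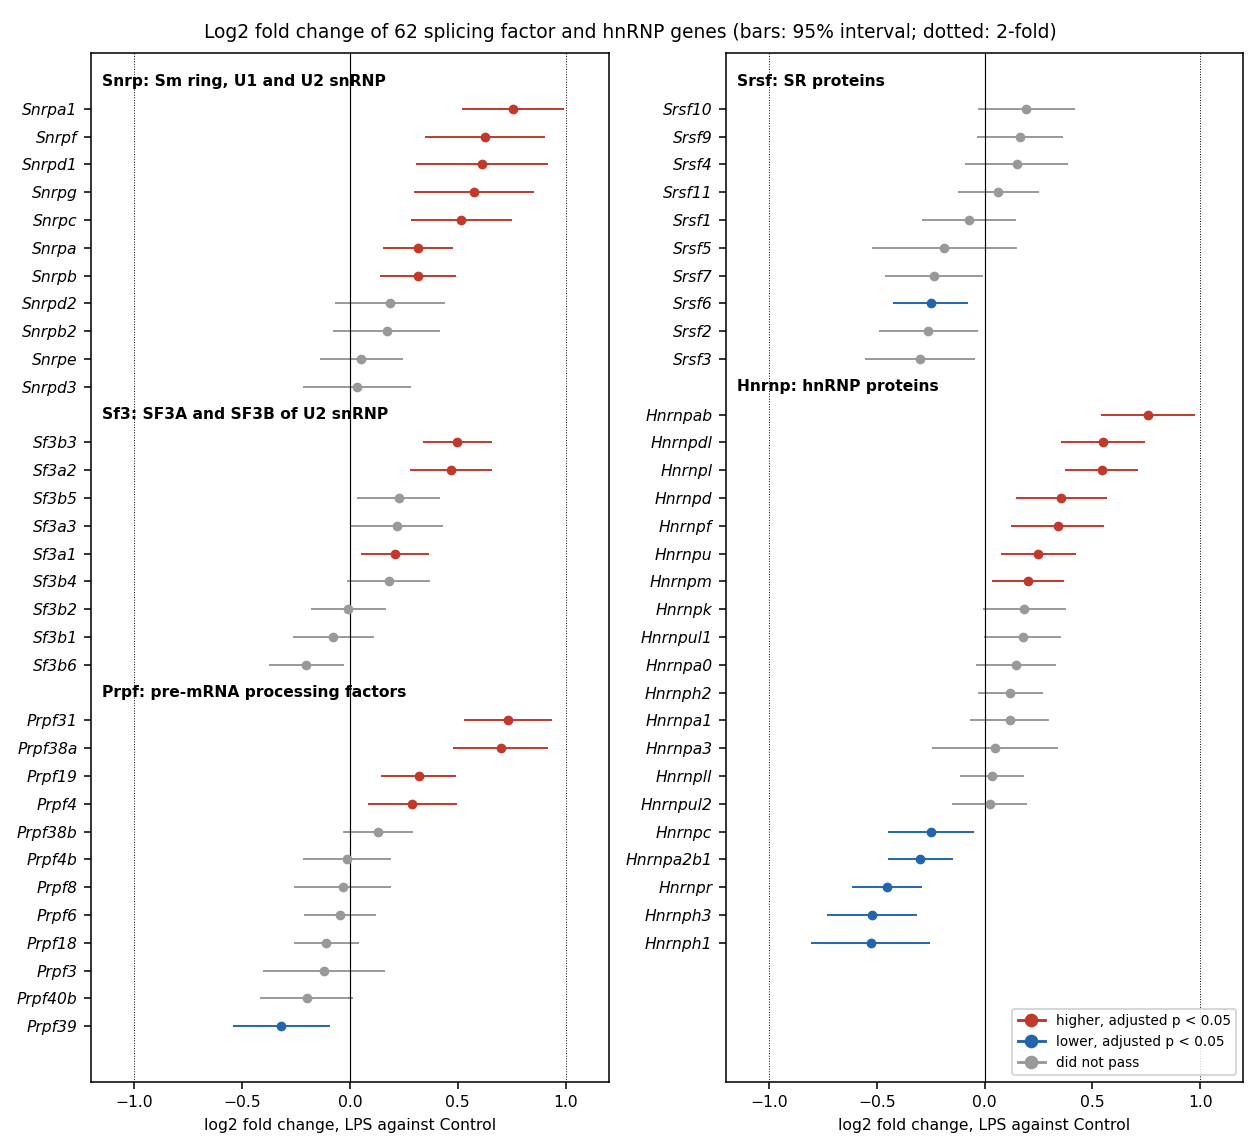
Log2 fold change (LPS against Control, horizontal axis) of the tested members, all but 1, grouped by class, with its 95% interval as a bar and 2-fold marked by dotted lines. Red points rose, blue points fell and grey points did not pass the test: all Snrp genes lie to the right of 0, Srsf genes lie between -0.30 and 0.19, and Hnrnp genes spread to both sides.

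The classes did not share one direction. Of 11 tested Snrp genes 7 rose and 0 fell, with a median log2 fold change of 0.32. Of 9 Sf3 genes 3 rose and 0 fell (median 0.21), and of 13 Prpf genes 5 rose and 1 fell (median -0.01). Of 20 tested Hnrnp genes 7 rose and 5 fell (median 0.13), while of 10 tested Srsf genes 0 rose and 1 fell (median -0.13). Of all genes 25.7% rose and 24.8% fell. The shares were 63.6% and 0% for Snrp, 33.3% and 0% for Sf3 and 38.5% and 7.69% for Prpf genes. Hnrnp genes were at 35% and 25%, and Srsf genes at 0% and 10%. These are descriptions of each class beside the same background, and the differences between classes were not tested.

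The 7 Snrp genes that rose encode proteins of the U1 particle, of the U2 particle and of the Sm ring. Snrpa1, which encodes the U2 protein A', stood at 11.5, 13.5 and 12.2 CPM in Control and at 19.9, 21.6 and 21.4 CPM in LPS libraries. The groups did not overlap, and the log2 fold change was 0.76 ± 0.11 (SE; edgeR adjusted p = 0.000353), the second largest of all members. Its partner in the U2 particle, Snrpb2, which encodes protein B'', stood at 19.2, 20.3 and 17.2 CPM in Control and at 19.9, 20.2 and 23.7 CPM in LPS libraries. Those groups overlapped, and the gene did not pass (log2 fold change 0.17, 95% interval -0.08 to 0.42). Both U1 genes rose. Snrpc, which encodes U1-C, went from 16.4 ± 1.02 to 23.4 ± 1.96 CPM (SD, n = 3 per group), with a log2 fold change of 0.52 ± 0.10 (SE). Snrpa, which encodes the U1 protein A, went from 36.3 ± 1.47 to 45.2 ± 1.99 CPM (0.32 ± 0.07).

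The genes of the Sm ring, whose products meet in one particle in equal number, include 4 that rose and 3 that did not pass. The differences between them were not tested. Snrpf stood at 13.9, 13.6 and 13.3 CPM in Control and at 17.9, 21.0 and 24.1 CPM in LPS libraries (log2 fold change 0.63 ± 0.12). Snrpd1 stood at 15.8, 15.5 and 13.0 CPM in Control and at 19.7, 21.9 and 26.4 CPM in LPS libraries (0.61 ± 0.13). Snrpg stood at 18.7, 18.9 and 16.4 CPM and at 22.5, 28.4 and 29.6 CPM (0.57 ± 0.12). In each of these genes LPS replicate 1 was the lowest and LPS replicate 3 the highest of the LPS libraries, and still lay above every Control library. Snrpb, which encodes SmB, rose by a smaller amount, from 88.1 ± 3.40 to 110 ± 6.26 CPM (0.31 ± 0.08).

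The other ring genes overlapped between the groups. Snrpd3 stood at 51.3, 52.6 and 48.1 CPM in Control and at 43.3, 52.9 and 59.3 CPM in LPS libraries, so that LPS replicate 1 lay below and LPS replicate 3 above all Control libraries. Its log2 fold change was 0.03, with a 95% interval of -0.22 to 0.28. For Snrpe the values were 0.05 and -0.14 to 0.25, and for Snrpd2 they were 0.19 and -0.07 to 0.44. Without LPS replicate 1, Snrpd2 passed, at 0.31 (edgeR adjusted p = 0.0148). Per length, Snrpd3 was the most abundant Snrp gene, at 84.2 ± 4.40 FPKM (fragments per kilobase of gene length, scaled to library size) in Control kidneys, followed by Snrpb at 62.9 ± 2.36, Snrpe at 58.2 ± 0.830, Snrpd2 at 55.2 ± 3.01 and Snrpg at 46.0 ± 3.92 FPKM. Snrpf and Snrpd1 stood lower in Control kidneys, at 16.8 ± 0.667 and 17.7 ± 2.06 FPKM, and differed from each other by less than the larger SD. In LPS kidneys Snrpf reached 25.7 ± 3.52 and Snrpd1 26.9 ± 3.79 FPKM beside 85.4 ± 12.3 FPKM for Snrpd3.

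**Figure D2:**
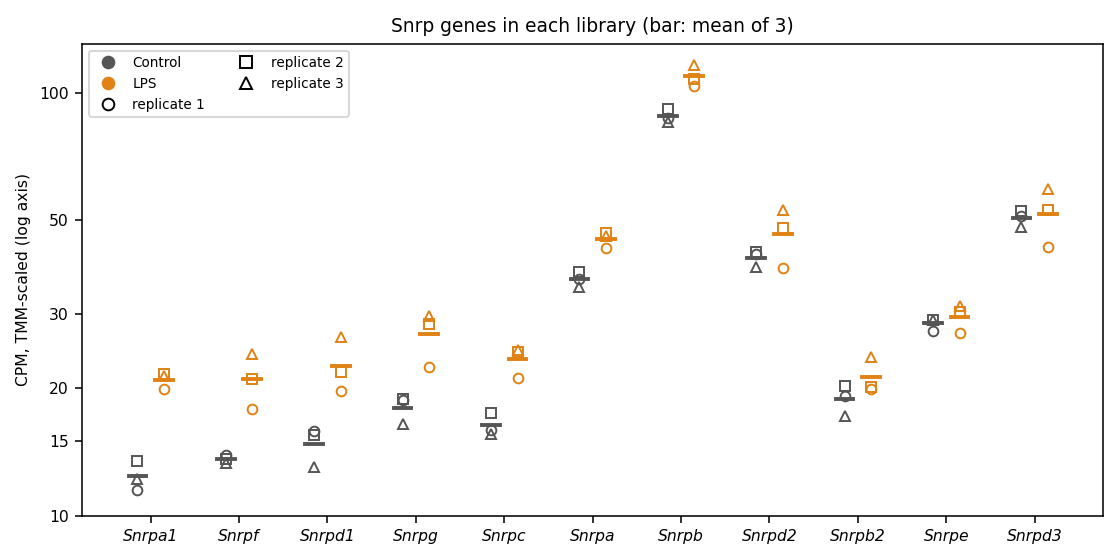
CPM (log axis) of the 11 Snrp genes in each library, Control in grey and LPS in orange, with a symbol per replicate and a bar at the mean of 3 libraries. Genes are ordered by log2 fold change: the 7 on the left show LPS libraries above all Control libraries, and in the 4 on the right the groups overlap.

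The Snrp genes are short, between 393 and 1570 bases in the length the authors used, and the libraries differed in how they covered short genes. Over all 709 tested genes of up to 1000 bases, LPS replicate 3 lay above the LPS mean by a median of 0.12 on the log2 CPM scale and LPS replicate 1 at -0.08. The Snrp genes deviated in the same order, at 0.15 in LPS replicate 3 and -0.14 in LPS replicate 1. Among genes over 4500 bases the order turned round, with LPS replicate 1 at 0.04 and LPS replicate 3 at -0.04. Short genes as a whole were called higher more often than long ones: 32.9% of those of up to 1000 bases rose and 25.5% fell, with a median log2 fold change of 0.08, whereas genes over 4500 bases had a median of -0.03. Of the 8 members of up to 1000 bases 4 rose and 0 fell (median 0.37). The part of this length pattern in the Snrp result was not tested. The count of 7 Snrp genes rose and 0 fell was found again without LPS replicate 3 and in each other fit that left out a library, except that without LPS replicate 1 it was 8 and 0.

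**Figure D3:**
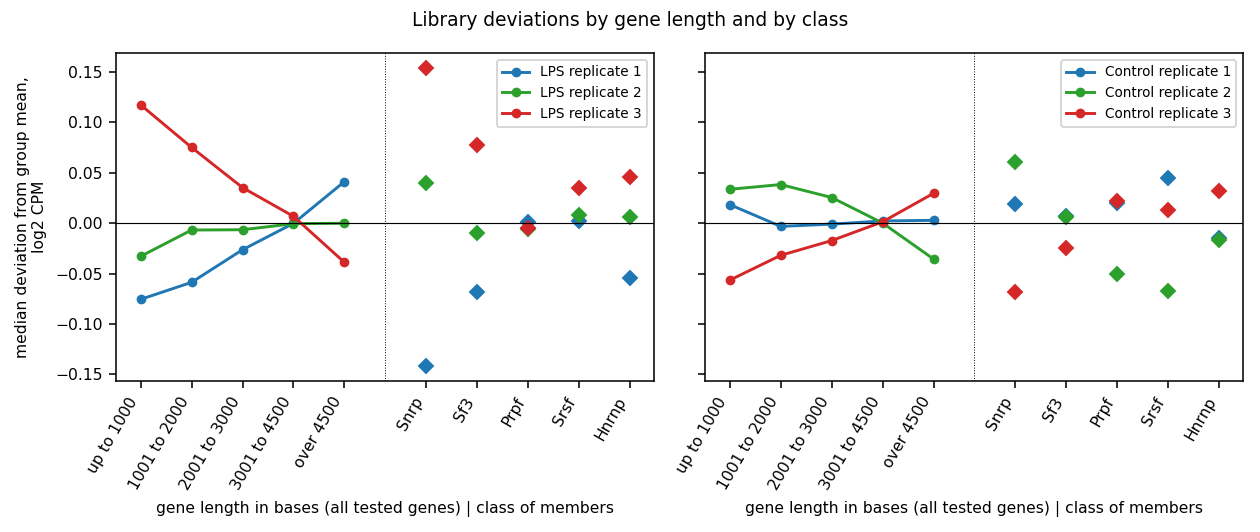
Median deviation of each library from the mean of its group (log2 CPM, vertical axis) for all tested genes in 5 bins of gene length (lines) and for each class of members (diamonds), LPS on the left and Control on the right. In the LPS panel the lines of replicates 1 and 3 cross, and the Snrp diamonds lie farthest apart, at -0.14 for LPS replicate 1 and 0.15 for LPS replicate 3.

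Reads on opposite strands can also bear on single values, since the strand setting of the counting was not given in the sources used here. Of 65 members, 10 share at least 5% of their annotated exon bases (GENCODE M21) with a gene on the other strand that is also in the files. Snrpf shares 65.9% with Ccdc38, which had 154 counts in the 6 libraries together beside 3263 for Snrpf. Hnrnpab shares 29.1% with Phykpl (4642 and 52341 counts), Sf3a2 16.1% with Plekhj1 (4209 and 3977 counts) and Srsf2 15.6% with Mettl23 (3961 and 28238 counts) and 9.74% with Mfsd11 (9733 counts). Partners with more counts than the member were also found for Prpf39, which shares 599 exon bases with Fkbp3 (8230 and 4436 counts), and for Snrpd3, which shares 6.74% with Gucd1 (29094 and 9612 counts). Snrpa shares 327 exon bases with BC024978 (2469 and 7666 counts). The log2 fold changes of the partners were -0.15 for Ccdc38, 0.32 for Phykpl, 0.47 for Plekhj1 (as for Sf3a2 itself), 0.38 for BC024978, -0.56 for Mettl23, 0.35 for Mfsd11, -0.29 for Fkbp3 (Prpf39 itself had -0.32) and 0.37 for Gucd1, and reads of partners cannot be told apart. Hnrnpa1 and other hnRNP and Sm genes have many processed copies in the mouse genome, and reads could be split with those.

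The promoters of these genes are shown because 7 of 11 Snrp genes rose. Promoter windows came from RefSeq (GRCm38.p6), where 57 of 65 members had an entry, and 55 of these were tested. Each window runs from 250 bases before to 50 bases after a listed start, and 8 short motifs were searched on both strands with no mismatch. The sequences given are the 100 bases just before the start, 5′ to 3′ on the strand of the gene, for 4 Snrp genes that rose (Snrpa1, Snrpf, Snrpg, Snrpc), for 3 that did not pass (Snrpe, Snrpd3, Snrpd2), and for Sf3a2, Hnrnpab and Hnrnph3 as examples of a rise in Sf3 and of the largest rise and a fall in Hnrnp. They were chosen after values and matches were seen. Capitals mark matches on either strand. The CCAAT box is CCAAT. The ETS core is CCGGAAG, the NRF1 core is TGCGCA and the Sp1 box is GGGCGG.
Snrpa1 (chr7:66060236-66060335, plus strand): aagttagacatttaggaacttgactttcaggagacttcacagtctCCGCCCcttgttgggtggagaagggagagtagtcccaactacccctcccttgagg
Snrpf (chr10:93589659-93589758, minus strand): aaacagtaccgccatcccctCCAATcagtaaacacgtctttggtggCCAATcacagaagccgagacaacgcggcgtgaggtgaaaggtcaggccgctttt
Snrpg (chr6:86371440-86371539, plus strand): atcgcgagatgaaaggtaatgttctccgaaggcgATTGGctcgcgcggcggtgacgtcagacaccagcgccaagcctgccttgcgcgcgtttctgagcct
Snrpc (chr17:27839987-27840086, plus strand): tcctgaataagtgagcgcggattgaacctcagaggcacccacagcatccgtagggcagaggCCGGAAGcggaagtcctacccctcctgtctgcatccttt
Snrpe (chr1:133610281-133610380, minus strand): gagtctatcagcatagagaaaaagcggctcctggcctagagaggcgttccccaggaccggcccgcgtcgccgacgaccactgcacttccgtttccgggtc
Snrpd3 (chr10:75517942-75518041, plus strand): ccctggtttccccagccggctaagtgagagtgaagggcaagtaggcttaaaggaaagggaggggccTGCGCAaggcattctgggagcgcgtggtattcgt
Snrpd2 (chr7:19149738-19149837, plus strand): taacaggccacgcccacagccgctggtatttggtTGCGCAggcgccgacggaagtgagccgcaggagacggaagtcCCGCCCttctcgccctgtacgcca
Sf3a2 (chr10:80798635-80798734, plus strand): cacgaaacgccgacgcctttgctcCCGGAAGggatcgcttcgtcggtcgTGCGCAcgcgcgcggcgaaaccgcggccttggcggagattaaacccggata
Hnrnpab (chr11:51606882-51606981, minus strand): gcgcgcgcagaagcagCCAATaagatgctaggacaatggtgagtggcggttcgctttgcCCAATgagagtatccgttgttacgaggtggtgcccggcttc
Hnrnph3 (chr10:63023850-63023949, minus strand): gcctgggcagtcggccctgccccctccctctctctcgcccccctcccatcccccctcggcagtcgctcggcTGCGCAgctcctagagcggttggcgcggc

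No printed stretch held every one of these motifs, and the genes that rose did not share one. In the 300-base windows the ETS core CCGGAAG was found for 20 of 55 members (36.4%), beside 18.3% of 11291 tested genes with a listed start. By class it was found for 6 of 7 Sf3 genes, 4 of 9 Snrp genes, 4 of 10 Srsf genes, 4 of 11 Prpf genes and 2 of 18 Hnrnp genes. The NRF1 core was found for 30.9% of members beside 14.7% of tested genes, the CCAAT box for 50.9% beside 42.6%, the Sp1 box for 69.1% beside 65.6%, the E-box CACGTG for 16.4% beside 11.3% and the TATA box TATAAA for 10.9% beside 9.57%. The kB site of NF-kB was found for 2 members beside 2.11% of tested genes, and the CGCG palindrome bound by Banp for 1 member beside 1.04%. By call, the ETS core was found for 8 of 19 members called higher, 0 of 7 called lower and 12 of 29 not called. For the NRF1 core it was 3 of 19 called higher, 4 of 7 called lower and 10 of 29 not called. These are matches of letters and no evidence of binding, and a link of any motif to the changes was not tested.

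SF3A and SF3B genes moved little, with exceptions upward. Sf3b3, a scaffold subunit of SF3B, stood at 60.9, 58.8 and 61.8 CPM in Control and at 89.9, 84.7 and 81.6 CPM in LPS libraries. The groups were far apart beside their spread, and the log2 fold change was 0.50 ± 0.07 (edgeR adjusted p = 0.000397). Sf3a2, a subunit of SF3A, rose from 17.7 ± 0.291 to 24.5 ± 0.678 CPM (0.47 ± 0.08). Sf3a1 rose by a log2 fold change of 0.21 ± 0.07, from 50.2 ± 1.46 to 58.1 ± 2.97 CPM. That call was lost without any one of LPS replicates 2 and 3 and Control replicates 1, 2 and 3 (edgeR adjusted p = 0.0878, 0.0948, 0.0775, 0.0634 and 0.111), with DESeq2 (adjusted p = 0.0637), and in other alternatives, over a range of 0.0237 to 0.111. Sf3b1, which binds the branch point region and is often mutated in blood cancers, stood at 199 ± 11.9 CPM in Control and at 189 ± 10.3 CPM in LPS kidneys. It did not pass (-0.08, 95% interval -0.27 to 0.11), nor did Sf3b2 (-0.01, interval -0.18 to 0.16).

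Sf3b5 and Sf3b6 had the highest Control levels per length among the Sf3 genes, while over all 6 libraries Sf3b2 (48.4 FPKM) lay above Sf3b6 (47.2 FPKM). Sf3b5 stood at 61.7 ± 4.49 FPKM in Control and 71.6 ± 4.61 FPKM in LPS kidneys, and Sf3b6, whose product contacts the branch point adenosine, at 50.7 ± 3.04 and 43.7 ± 2.80 FPKM. Neither passed (log2 fold changes 0.23 and -0.20, edgeR adjusted p = 0.0504 and 0.0523). Leaving out 1 library changed these calls. Without LPS replicate 1, Sf3b5, Sf3a3 and Sf3b4 passed (0.29, 0.28 and 0.24, edgeR adjusted p = 0.0199, 0.0402 and 0.0403), which made 6 Sf3 genes higher. Without LPS replicate 3, Sf3b6 passed at -0.26 (edgeR adjusted p = 0.0261). Sf3b6 also passed with RLE factors or library sizes as the scaling (edgeR adjusted p = 0.0480 and 0.0445), with a range of 0.0261 to 0.170 over all alternatives.

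Among the Prpf genes, Prpf31 and Prpf38a rose most. Prpf31, which encodes a U4 snRNP protein needed to join the tri-snRNP and mutated in a form of inherited retinal degeneration, stood at 23.5, 21.4 and 21.9 CPM in Control and at 34.1, 40.4 and 36.6 CPM in LPS libraries. The log2 fold change was 0.73 ± 0.09 (edgeR adjusted p = 0.000168). Prpf38a, which acts when the assembled spliceosome is activated, stood at 15.1, 15.7 and 14.6 CPM in Control and at 23.8, 23.2 and 26.8 CPM in LPS libraries, a log2 fold change of 0.70 ± 0.10. In both genes the groups stood apart by more than the spread within either.

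Prpf19, a ubiquitin ligase and the core of the Prp19 complex, rose from 106 ± 1.40 to 132 ± 7.34 CPM (0.32 ± 0.08). Prpf4, another tri-snRNP protein, rose from 22.3 ± 0.594 to 27.2 ± 2.29 CPM (0.29 ± 0.09). The call of Prpf4 was lost without any single library except LPS replicate 3, with an edgeR adjusted p of 0.0527 to 0.0757 in those fits and a range of 0.0227 to 0.0757 over all alternatives.

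The tri-snRNP genes Prpf8, Prpf6 and Prpf3 did not pass. Prpf8, the scaffold that holds the catalytic centre, stood at 230, 234 and 259 CPM in Control and at 264, 233 and 209 CPM in LPS libraries, with overlapping groups (log2 fold change -0.03, 95% interval -0.26 to 0.19). It was the most abundant Prpf gene per length, at 32.3 ± 1.84 FPKM in Control kidneys, followed by Prpf6 at 18.1 ± 0.912 and Prpf19 at 16.7 ± 0.575 FPKM. Prpf6, which links the particles of the tri-snRNP, had a log2 fold change of -0.05 (interval -0.21 to 0.12), and the U4/U6 protein gene Prpf3 had -0.12 (-0.40 to 0.16). The kinase gene Prpf4b had -0.01 (-0.22 to 0.19). Prpf39, a U1-associated protein in yeast, was the only Prpf gene that fell, from 28.9, 23.7 and 26.4 CPM in Control to 22.3, 20.1 and 20.9 CPM in LPS libraries (-0.32 ± 0.10). That call was lost without LPS replicate 2 or 3 or Control replicate 1 or 3 (edgeR adjusted p = 0.0939, 0.0619, 0.0862 and 0.0640) and in the fits on FPKM, over a range of 0.0201 to 0.0939.

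Genes of SR proteins, which bind exonic enhancers through RNA recognition motifs and contact the spliceosome through arginine and serine repeats, had 1 call among 10 tested genes. Srsf6 fell, from 116, 108 and 116 CPM in Control to 94.7, 101 and 90.7 CPM in LPS libraries. The groups did not overlap, and the log2 fold change was -0.25 ± 0.08 (edgeR adjusted p = 0.0238). The call was lost without LPS replicate 3 or Control replicate 1 or 3 (edgeR adjusted p = 0.0585, 0.0572 and 0.0671), over a range of 0.0116 to 0.0671 in the alternatives. The 95% intervals of all 10 tested Srsf genes lay within 1.5-fold in both directions, beside those of 40.1% of all genes.

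Srsf2, Srsf3 and Srsf7 had values close to that of Srsf6 but did not pass. Srsf3, which encodes the smallest SR protein and also takes part in mRNA export, stood at 126, 115 and 116 CPM in Control and at 98.8, 81.3 and 110 CPM in LPS libraries (-0.30 ± 0.11, edgeR adjusted p = 0.0527). Srsf2, known as SC35 and a mark of nuclear speckles, stood at 171, 157 and 166 CPM in Control and at 118, 146 and 147 CPM in LPS libraries (-0.26 ± 0.10, edgeR adjusted p = 0.0570). Every LPS library lay below every Control library for these genes and for Srsf7 (-0.23, edgeR adjusted p = 0.0811). Calls in this group turned on the method. DESeq2 called Srsf2 and Srsf3 lower (adjusted p = 0.0328 and 0.0324), and so did limma-voom (adjusted p = 0.0413 and 0.0397). Without LPS replicate 3 edgeR called both as well (adjusted p = 0.0465 and 0.0153), and without Control replicate 2 it called Srsf7 (adjusted p = 0.0256). The range over all alternatives was 0.0328 to 0.136 for Srsf2 and 0.0153 to 0.157 for Srsf3.

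The other SR genes lay nearer to 0. Srsf1, the founding member known as ASF/SF2, stood at 169, 161 and 166 CPM in Control and at 137, 167 and 167 CPM in LPS libraries, where LPS replicate 1 alone was low (-0.07, 95% interval -0.29 to 0.14). Srsf5, the most abundant SR gene per length at a mean of 61.9 FPKM in Control kidneys, ranged from 87.3 to 125 CPM in Control and from 79.9 to 106 CPM in LPS libraries (-0.19, interval -0.52 to 0.15). Its Control spread, relative to its mean, was the widest of the tested Srsf genes. Srsf10, which represses splicing when dephosphorylated, had a log2 fold change of 0.19, Srsf9 0.16, Srsf4 0.15 and Srsf11 0.06, and none passed. Without LPS replicate 1, Srsf10 passed at 0.27 (edgeR adjusted p = 0.0409). Srsf12 was below the count filter, with counts of 2, 1 and 2 in LPS and 7, 1 and 0 in Control libraries.

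The Hnrnp class held both the largest rise and the largest fall of all members. Hnrnpab, which encodes hnRNP A/B (CBF-A), stood at 214, 200 and 204 CPM in Control and at 309, 346 and 391 CPM in LPS libraries. The lowest LPS library lay well above the highest Control library, and the log2 fold change was 0.76 ± 0.10 (edgeR adjusted p = 0.000205). Per length it was the most abundant of all members over the 6 libraries, at 81.2 ± 4.66 FPKM in Control and 136 ± 14.5 FPKM in LPS kidneys. In Control kidneys alone Hnrnpk (95.8 FPKM), Hnrnpa2b1 (89.1 FPKM) and Snrpd3 (84.2 FPKM) lay above Hnrnpab. Its close relatives rose too. Hnrnpdl went from 47.1 ± 2.18 to 69.0 ± 6.52 CPM (0.55 ± 0.09), and Hnrnpd, which encodes AUF1, a protein that binds AU-rich elements of cytokine mRNAs and promotes their decay, from 52.1 ± 5.14 to 66.7 ± 5.05 CPM (0.36 ± 0.09). Hnrnpl, a repressor that binds CA repeats and is known for its action on Cd45 exons, stood at 121, 119 and 122 CPM in Control and at 185, 171 and 172 CPM in LPS libraries (0.54 ± 0.08, edgeR adjusted p = 0.000356). Its paralogue Hnrnpll stood at 46.8 ± 1.41 and 48.0 ± 1.26 CPM and did not pass (0.04, 95% interval -0.11 to 0.19).

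Smaller rises were found for Hnrnpf (0.34 ± 0.10), Hnrnpu (0.25 ± 0.08) and Hnrnpm (0.20 ± 0.07). Hnrnpu encodes scaffold attachment factor A, and went from 272 ± 9.33 to 324 ± 20.3 CPM. These calls were not stable when 1 library was left out. Hnrnpf lost its call without Control replicate 1 or 2 (edgeR adjusted p = 0.0537 and 0.0559). Hnrnpu lost it without LPS replicate 2 or 3 or Control replicate 2 or 3 (edgeR adjusted p = 0.0725, 0.0666, 0.0986 and 0.0686). Hnrnpm lost it without any single library except LPS replicate 1 (edgeR adjusted p between 0.0725 and 0.132) and with RLE factors (adjusted p = 0.0565). Across every alternative run, adjusted p-values spanned 0.00295 to 0.0559 for Hnrnpf, 0.00929 to 0.0986 for Hnrnpu and 0.0201 to 0.132 for Hnrnpm. Without Control replicate 2, 4 Hnrnp genes rose.

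Hnrnph1, Hnrnph3, Hnrnpr, Hnrnpa2b1 and Hnrnpc fell. Hnrnph1, which binds runs of guanines beside splice sites, stood at 122, 94.8 and 114 CPM in Control and at 66.5, 86.2 and 76.4 CPM in LPS libraries (-0.53 ± 0.12, edgeR adjusted p = 0.00597). Hnrnph3 stood at 26.1, 24.4 and 25.7 CPM in Control and at 17.5, 19.0 and 16.6 CPM in LPS libraries (-0.52 ± 0.09, edgeR adjusted p = 0.00138). In both genes the LPS libraries lay below all Control libraries, while their relative Hnrnph2 did not pass, at 69.9 ± 2.05 and 75.9 ± 1.61 CPM (0.12, 95% interval -0.03 to 0.27). Hnrnpr fell from 46.0 ± 1.94 to 33.7 ± 1.36 CPM (-0.45 ± 0.07). Hnrnpa2b1, one of the most abundant hnRNPs and a carrier of mRNAs and microRNAs, stood at 359, 360 and 367 CPM in Control and at 287, 296 and 301 CPM in LPS libraries (-0.30 ± 0.07). Hnrnpc, whose product guards introns against binding of U2AF, fell from 136 ± 10.9 to 114 ± 6.28 CPM (-0.25 ± 0.09). That call was lost without LPS replicate 2 or 3 or Control replicate 1 or 2 (edgeR adjusted p = 0.0941, 0.105, 0.128 and 0.0811) and without the low-count filter (adjusted p = 0.0518), over a range of 0.0257 to 0.128.

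The other abundant hnRNP genes did not pass. Hnrnpk, which binds runs of cytosines and is second among all members per length over the 6 libraries, stood at 95.8 ± 3.06 FPKM in Control and 108 ± 7.93 FPKM in LPS kidneys (log2 fold change 0.18, edgeR adjusted p = 0.0993). Hnrnpa1, a repressor that often opposes Srsf1, stood at 75.0, 75.7 and 84.9 CPM in Control and at 83.0, 90.3 and 82.3 CPM in LPS libraries (0.12, 95% interval -0.07 to 0.30). Hnrnpa0 (0.15), Hnrnpa3 (0.05), Hnrnpul1 (0.18) and Hnrnpul2 (0.02) also did not pass. The related symbol Hnrnpa1l2-ps2, a pseudogene by its name, was below the count filter, with counts of 0, 2 and 1 in LPS and none in Control libraries.

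**Figure D4:**
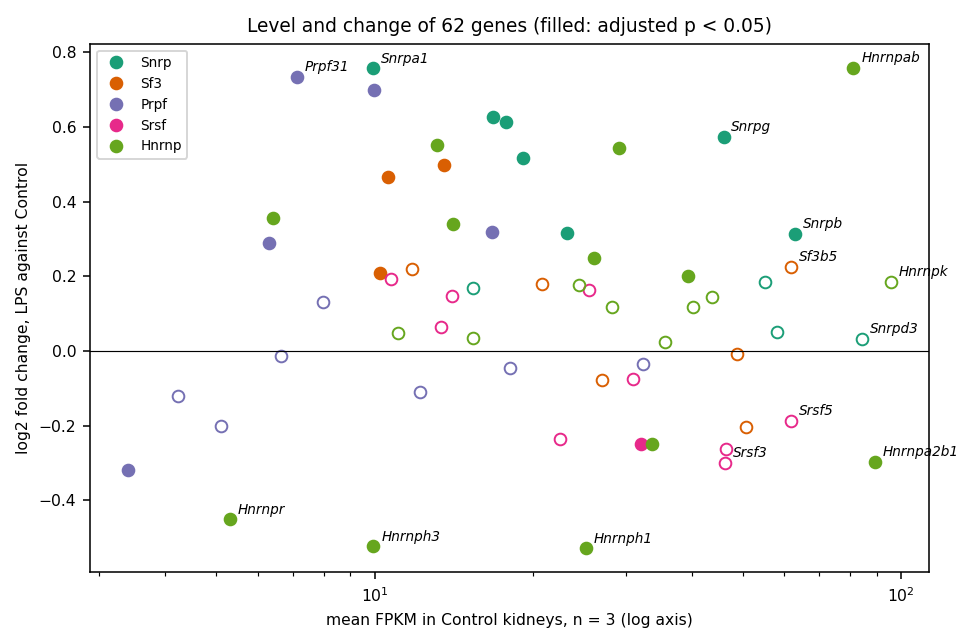
Mean FPKM in Control kidneys (n = 3, log axis) against the log2 fold change in LPS kidneys for the tested members, all but 1, coloured by class, with filled points past the test. Abundant genes lie on both sides of 0: Hnrnpab is at 0.76 and Hnrnpa2b1, at a similar Control level, at -0.30.

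Ratios of related genes within a library do not depend on how libraries are scaled, and they shifted between the groups. The 7 pairs compared were chosen after their values were seen and carry no test. The log2 ratio of Hnrnpf to Hnrnph1 in FPKM was -1.05, -0.63 and -0.79 in Control and 0.07, -0.08 and 0.13 in LPS libraries, so that the ratio was 1.82-fold higher in LPS kidneys. The ratio of Hnrnpab to Hnrnpa2b1 was 2.07-fold higher in LPS kidneys, and that of Hnrnpl to Hnrnpll 1.42-fold. The log2 ratio of Snrpd1 to Snrpd3 was higher by 0.59. The ratio of Snrpf to Snrpe was 1.48-fold higher and that of Snrpa1 to Snrpb2 1.51-fold. For Prpf38a to Prpf38b it was 1.48-fold higher. In each pair the LPS libraries lay above the Control libraries, as the choice of pairs favours.

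Other genes of the splicing pathway and of related RNA processing, taken from 8 lists, also changed little. Of 186 tested list genes 43 rose and 18 fell (23.1% and 9.68%, beside 25.7% and 24.8% of all genes), with a median log2 fold change of 0.09. Of 23 other snRNP proteins 7 rose and 0 fell (median 0.03), among them Snrnp35 of the minor U11 particle (0.51 ± 0.13) and Snrnp40 of U5 (0.49 ± 0.10). Of 21 tested LSm and tri-snRNP genes 4 rose and 0 fell (median 0.11), led by Lsm2 (0.77 ± 0.15) and Lsm7 (0.59 ± 0.15), parts of the ring on U6 RNA. Of 18 genes for snRNP assembly and import 6 rose and 4 fell (median 0.14). Wdr77, which works with Prmt5 to methylate Sm proteins, rose from 32.7 ± 2.19 to 51.8 ± 6.23 CPM (0.66 ± 0.10), and Gemin4 of the SMN complex rose by 0.53 ± 0.12. Ncbp2, a subunit of the cap-binding complex, fell by 0.43 on the log2 scale, and Gemin8 had -0.43 with a call that each fit without 1 library lost (edgeR adjusted p = 0.0491 with all libraries, up to 0.132 over the alternatives).

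Splice site recognition factors were called in both directions, as genes in general were. Of 16 genes 4 rose and 2 fell (25% and 12.5%, beside 25.7% and 24.8% of all genes), with a median of 0.14. U2af1, which reads the AG at the end of the intron, rose from 34.2 ± 1.74 to 52.7 ± 5.31 CPM (0.63 ± 0.09). Sf1, which first binds the branch point, fell from 120 ± 4.49 to 94.2 ± 3.86 CPM (-0.34 ± 0.08), and Rbm5 had -0.26 ± 0.08. Of 24 genes of the Prp19 complex and the catalytic steps 6 rose and 2 fell (25% and 8.33%, median 0.11). They included the helicase gene Aqr at 0.59 ± 0.07, Cwc27 at 0.60 ± 0.17, Cdc5l at -0.27 ± 0.07 and Cwc15 at -0.21 ± 0.07. Of 21 genes of the exon junction complex, nonsense-mediated decay and mRNA export 5 rose and 2 fell (23.8% and 9.52%, median 0.03). Among them were Smg9 at 0.55 ± 0.11, the export gene Thoc5 at 0.48 ± 0.09, Smg6 at -0.33 ± 0.11 and Upf2 at -0.32 ± 0.10.

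Among 22 tested SR-related genes and SR protein kinases 2 rose and 4 fell (9.09% and 18.2%, median 0.03). The shares over all genes were 25.7% and 24.8%. Rnps1, which links the exon junction complex to splicing, rose from 32.0 ± 2.34 to 49.6 ± 0.749 CPM (0.63 ± 0.08), and the kinase gene Clk3 rose by 0.33 ± 0.09. Clk1, whose product phosphorylates SR proteins, stood at 77.4, 64.1 and 68.4 CPM in Control and at 43.0, 49.1 and 56.4 CPM in LPS libraries (-0.50 ± 0.11, edgeR adjusted p = 0.00512). Tra2a fell from 36.1 ± 6.27 to 26.6 ± 4.41 CPM (-0.44 ± 0.15). Of the genes named from these last lists, Rbm5, Cdc5l, Cwc15, Cwc27, Tra2a, Clk3, Smg6 and Upf2 lost their calls when single libraries were left out. Those libraries were LPS replicate 1 (Cwc15, Tra2a, Upf2), LPS replicate 2 (Rbm5, Cdc5l, Cwc15, Clk3, Smg6, Upf2), LPS replicate 3 (Rbm5, Cwc15, Cwc27, Tra2a, Smg6), Control replicate 1 (Rbm5, Cwc27, Tra2a, Upf2), Control replicate 2 (Rbm5, Cwc15, Smg6, Upf2) and Control replicate 3 (Cwc15, Clk3, Smg6). In the order first given, these genes had adjusted p-values of up to 0.0840, 0.0523, 0.168, 0.0559, 0.113, 0.0700, 0.102 and 0.0857 over the alternatives (edgeR and the other tools).

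The largest changes of the pathway lay outside the members, among 41 other tested regulators of alternative splicing. Of these regulators 9 rose and 4 fell (22.0% and 9.76%, median 0.10), beside 25.7% and 24.8% of all genes. Rbm3, a cold-inducible RNA-binding protein, stood at 47.1, 55.0 and 65.5 CPM in Control and at 185, 275 and 305 CPM in LPS libraries (log2 fold change 2.19 ± 0.19, edgeR adjusted p = 2.3e-05). The related cold-inducible gene Cirbp stood at 24.4 ± 7.09 and 26.5 ± 3.66 CPM and did not pass (0.12). Ralyl, a relative of the hnRNP C family, fell from 86 counts in Control to 5 in LPS libraries together (-4.09 ± 0.48). It passed the count filter through its Control libraries only, which favoured a fall. Rbfox1, which binds GCAUG elements, fell from 225 to 37 counts (-2.68 ± 0.48). Nova1 had 98 and 195 counts (0.90 ± 0.31). Its call was lost without LPS replicate 1 or 3 or Control replicate 2 or 3, with an adjusted p of up to 0.125 over the alternatives (edgeR and the other tools). Cirbp was chosen for mention after its value was seen.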

How the data were processed

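Per the labels' protocols, kidney RNA was isolated with TRIzol, and a VAHTS Universal V6 kit was used for the libraries. The authors deposited raw counts and FPKM values per gene symbol. The submitters' processing notes name SAMtools, HTSeq, HISAT2, R 3.2.0 and DESeq2 without saying what each did. Build, annotation and strand setting of the counting: not given in the sources used here. Gene lengths were recovered from the deposited FPKM values: counts, library totals and whole-number lengths return the FPKM within a relative 1e-05.

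Groups came from the sample titles. The counts went into edgeR 4.0.16 (R 4.3.3; filterByExpr, minimum count 10, minimum total 15; TMM factors; quasi-likelihood test; Benjamini-Hochberg over 14219 genes; threshold 0.05), tested on simulated data. An SE is the absolute log2 fold change over the root of the F statistic, and intervals are at 95%. CPM use TMM factors. The design text gives 3 mice per group and nothing more, so p-values weigh group differences only against the spread between these samples.

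Named genes were, per class, the 4 largest rises, the 4 largest falls and the 2 highest by mean FPKM, members below the filter, and the 2 largest rises and falls of each pathway list (59 genes, of which 2 are not reported here). Other members were chosen after their values were seen. Members and lists were chosen with earlier results of these data known. Alternatives changed the scaling (RLE factors, or library sizes alone), the filter (none, CPM of 1 on average, FPKM of 1 on average), the tool (DESeq2 1.42.0, limma-voom, limma 3.58.1 on log2 FPKM with a pseudocount of 1 or 0.1) or the samples (a replicate block, each library left out).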

Additional observations from a re-analysis of the deposited data

How the results depend on the processing

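Of 29 members called, 21 kept their call under all 16 alternatives and 8 lost it under at least 1, and of 34 not called 9 were called under at least 1. No called member changed sign. The median over all genes moved by less than 0.1 on the log2 scale under every scaling. Members called lower numbered 4 to 7 and higher 17 to 26 when 1 library was left out. In such fits Srsf genes called higher numbered 0 to 1 and lower 0 to 2, Hnrnp genes higher 4 to 7, Sf3 genes higher 2 to 6 and lower 0 to 1, and Prpf genes lower 0 to 1, and the class medians ran from 0.11 to 0.19 for Hnrnp and from -0.025 to 0.053 for Prpf. Srsf genes called lower were 2 with library sizes alone, with the replicate block and on log2(FPKM + 1), and 3 with a mean CPM of at least 1, DESeq2, limma-voom, log2(FPKM + 0.1) and a mean FPKM of at least 1. Sf3 genes called lower were 1 with RLE factors, library sizes alone, a mean CPM of at least 1 and each of the 3 FPKM fits, and Prpf genes called lower were 0 in each of those 3 fits. The labels give both groups the replicate numbers 1 to 3. Same-numbered libraries deviated with correlations of 0.05, -0.05 and 0.00, so no strong shared deviation was seen. Such values cannot show whether the samples were paired. With the replicate block 18 members rose and 8 fell. A gene past the threshold in neither of 2 fits counts here as unchanged whatever its sign. Where a call depended on a setting, the cause was not tested.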
